A study of Homo sapiens with 6 samples.

Results

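The BCL2 family genes BAX, BAK1, BBC3, PMAIP1, BID, BCL2L11, BIK, BCL2, BCL2L1 and MCL1 were followed with and without ionizing radiation (IR) in the human osteosarcoma line U-2 OS. They were chosen by name, 7 of them as pro-apoptotic and 3 as anti-apoptotic, and make up 10 of the 21447 genes to which transcripts could be assigned. RNA of unsynchronized cells was sequenced in bulk from 3 untreated libraries and from 3 libraries of cells collected 24 h after a dose of 4 Gy (the IR group), and the groups share the cell line and medium and differ in no other labelled factor. The study describes the 3 libraries of a group as independent samples, and neither it nor the labels say whether these were separate cultures, so p-values measure the spread between these libraries, which may be technical. In bulk RNA, a change in the number of cells that express a gene cannot be told apart from a change in RNA per cell.

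Proteins of the BCL2 family control the permeability of the mitochondrial outer membrane. The effectors BAX and BAK1 form pores that release cytochrome c, anti-apoptotic members such as BCL2, BCL-xL (the main product of BCL2L1) and MCL1 hold them in check, and BH3-only proteins relieve that restraint or activate the effectors directly.

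The libraries held between 18573309 and 22953834 estimated counts, except IR replicate 3 with 45308792. Log2 CPM (counts scaled to library size) correlated between any 2 libraries at a Pearson r of 0.972 or more across genes. Of 8 mesenchymal and osteoblast markers, 6 reached 1 CPM in every library, with a summed level of 7032 to 7664 CPM in untreated and 7455 to 8125 CPM in IR libraries, and TWIST1 was below 1 CPM. The 4 haematopoietic markers summed to 0.753 to 1.81 CPM and the 3 endothelial markers to 3.17 to 5.11 CPM over all libraries. Of 5 epithelial markers, 4 reached 1 CPM in every library, KRT19 did not, and their sum lay between 304 and 309 CPM in untreated and between 369 and 449 CPM in IR libraries. Among these markers CDH1 (log2 fold change 0.61), KRT8 (0.40) and KRT18 (0.42) were called higher and the osteoblast factor RUNX2 (−0.36) lower, and CDH1 kept its call in 5 of 16 alternative fits and RUNX2 in 11. Whether this difference has a part in the results below was not tested.

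After IR, 4 members rose (BAX, BBC3, BID and BCL2L1), 2 fell (BCL2L11 and BCL2) and 3 did not pass the test (BAK1, PMAIP1 and MCL1). Calls are from edgeR's quasi-likelihood test at a Benjamini–Hochberg adjusted p under 0.05 over 14323 genes, of which 30.1% were called, 15.5% higher and 14.5% lower. BIK, whose product is a BH3-only protein of the endoplasmic reticulum, had 1, 5 and 0 counts in the untreated and 5, 2 and 12 counts in the IR libraries, too few to be tested. Among the 9 tested members, all IR libraries lay above all untreated libraries for 4, against 23.8% of all tested genes, and below them for 3 (BCL2L11, BCL2 and MCL1), against 23.3%. The median log2 fold change was 0.27 for the tested members and 0.01 for all tested genes.

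**Figure D1:**
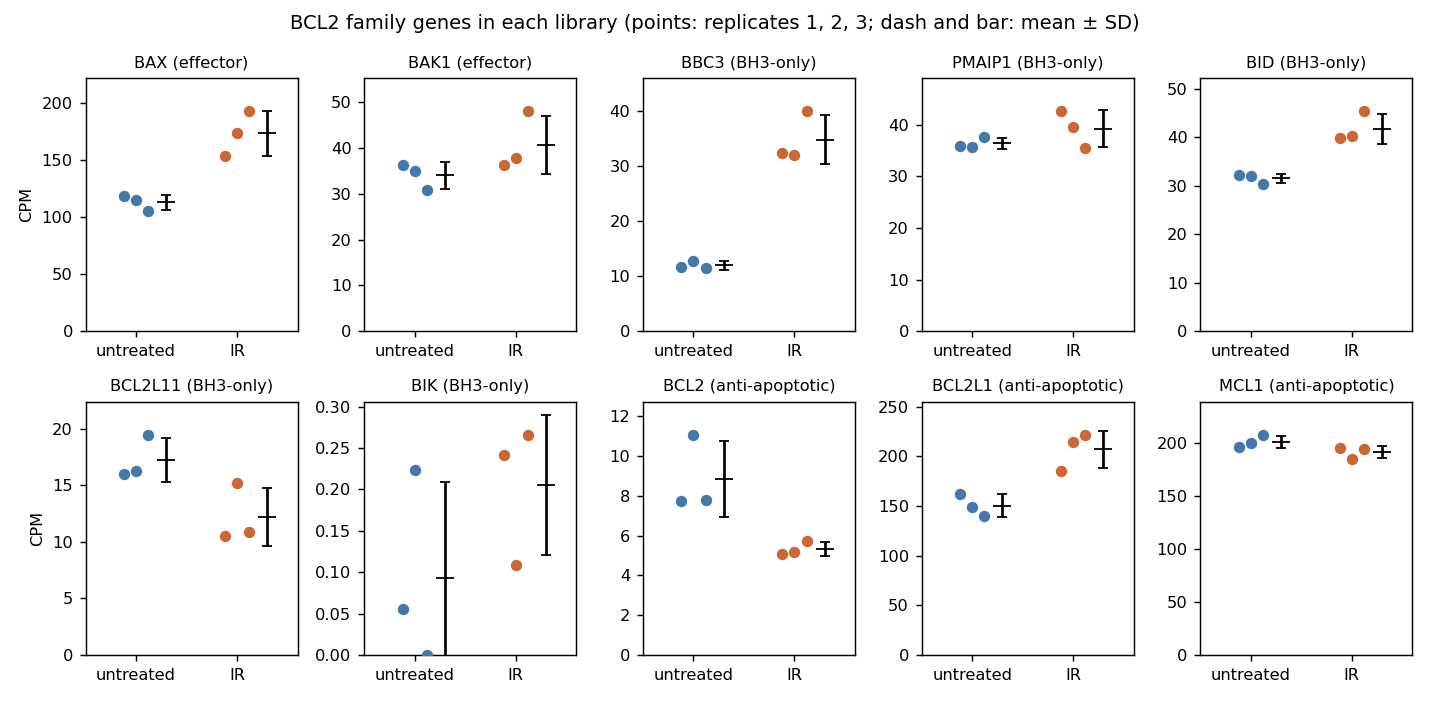
CPM of each of the 10 genes (vertical axes, each from 0) in the 3 untreated and 3 IR libraries (points), with the mean and SD of each group beside them. BBC3 shows the widest separation, from 11.5 to 12.8 CPM in untreated and from 32.1 to 40.0 CPM in IR libraries, whereas the groups overlap for BAK1, PMAIP1 and BIK.

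On GRCh38, BAX (chr19:48954815-48961798, plus strand) and BBC3 (chr19:47220822-47232766, minus strand) share chromosome 19, and PMAIP1 (chr18:59899996-59904305, plus strand) and BCL2 (chr18:63123346-63320128, minus strand) share chromosome 18. BAK1 lies at chr6:33572547-33580293 (minus strand), BID at chr22:17734138-17774770 (minus strand), BIK at chr22:43110750-43129712 (plus strand) and BCL2L11 at chr2:111119378-111168444 (plus strand). BCL2L1 lies at chr20:31664452-31723989 (minus strand) and MCL1 at chr1:150560895-150579738 (minus strand). Exons of MCL1 overlap those of ADAMTSL4 on the opposite strand by 43 bases, and reads there could not be assigned by strand here. A value is the sum over all transcripts of a gene in the deposited tables.

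Promoter sequences are shown for the 4 members called higher, as the 250 bases before a RefSeq transcription start (GRCh38.p14), on the strand of the gene and with each E-box in capitals. The E-box CACGTG, the same on both strands, is the binding motif of MYC, MAX and USF proteins. BID has 5 annotated starts and BCL2L1 has 2, and 1 window of each is given.
BAX, chr19:48954625-48954874, plus strand: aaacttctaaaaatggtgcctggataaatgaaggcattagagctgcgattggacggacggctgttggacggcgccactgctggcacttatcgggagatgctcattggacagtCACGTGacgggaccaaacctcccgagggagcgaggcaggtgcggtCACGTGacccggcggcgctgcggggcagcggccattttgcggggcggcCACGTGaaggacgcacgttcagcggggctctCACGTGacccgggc
BBC3, chr19:47232668-47232917, minus strand: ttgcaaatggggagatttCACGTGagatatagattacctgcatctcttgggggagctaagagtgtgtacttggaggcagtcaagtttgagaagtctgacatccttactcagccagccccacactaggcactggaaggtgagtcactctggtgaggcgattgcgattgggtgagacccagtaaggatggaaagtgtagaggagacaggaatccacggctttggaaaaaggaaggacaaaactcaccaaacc
BID, chr22:17773984-17774233, minus strand: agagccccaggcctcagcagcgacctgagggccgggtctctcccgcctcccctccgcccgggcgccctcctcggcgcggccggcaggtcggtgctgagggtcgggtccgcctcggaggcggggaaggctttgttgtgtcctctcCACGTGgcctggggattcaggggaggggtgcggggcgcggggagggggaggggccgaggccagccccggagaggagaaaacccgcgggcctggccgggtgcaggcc
BCL2L1, chr20:31723964-31724213, minus strand: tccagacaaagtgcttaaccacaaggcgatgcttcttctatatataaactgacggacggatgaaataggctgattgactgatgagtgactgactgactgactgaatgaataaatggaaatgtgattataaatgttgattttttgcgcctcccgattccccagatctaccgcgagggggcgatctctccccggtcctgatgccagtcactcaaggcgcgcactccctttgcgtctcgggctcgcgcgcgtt

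The BAX window held 4 E-boxes, which begin at −138, −93, −45 and −14 relative to the start. Of the 35116 RefSeq windows of this length, 6.34% held at least 1 E-box and 5 windows (0.0142%) held 4 or more. The BBC3 window held 1, at −232, and the BID window shown held 1, at −106. This same site lies in 2 of the 5 overlapping or neighbouring BID windows, and the other 3 held none, as did both BCL2L1 windows. The p53 half-site RRRCWWGYYY (R for A or G, W for A or T, Y for C or T) was searched as well. At least 1 lay in 5.57% of all windows. No window of the 4 members called higher held one, and the BAK1 window held 1, at −73. GC, CCAAT and TATA boxes were also counted and are not reported here. A match is a description of these letters and not a binding site, and the absence of one says nothing about the factor.

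The effector BAX, which moves from the cytosol to mitochondria when activated, had levels of 118, 115 and 105 CPM without IR and of 154, 173 and 193 CPM after it, with libraries here and below given in the order of replicates 1, 2 and 3. The groups did not overlap, and the lowest IR library was IR replicate 1. Whether the 4 E-boxes in its window above have a part in this rise was not tested. The log2 fold change was 0.62 (SE 0.088, 95% confidence interval 0.43 to 0.82, edgeR adjusted p = 0.00128), or 1.54-fold. The other effector, BAK1, which resides in the outer membrane, stood at 36.3, 34.9 and 30.7 CPM in untreated and at 36.2, 37.8 and 47.9 CPM in IR libraries. IR replicate 1 lay within the untreated range and IR replicate 3 above all others. Its log2 fold change of 0.27 (SE 0.113) did not pass the test (edgeR adjusted p = 0.0983), and without IR replicate 3 it was 0.11.

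BBC3 encodes PUMA, a BH3-only protein that binds all the anti-apoptotic members. It stood at 11.6, 12.8 and 11.5 CPM in untreated and at 32.5, 32.1 and 40.0 CPM in IR libraries. Every IR library was thus well above every untreated one, with IR replicate 3 the highest. The log2 fold change of BBC3 was 1.55 (SE 0.107, 95% confidence interval 1.31 to 1.78, edgeR adjusted p = 0.000101), or 2.92-fold, above that of 99.7% of tested genes, and without IR replicate 3 it was 1.42.

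BID, which is activated by caspase cleavage and links death receptors to mitochondria, stood at 32.2, 32.0 and 30.4 CPM in untreated and at 39.8, 40.2 and 45.3 CPM in IR libraries. The groups did not overlap, and the untreated libraries lay close together. Its log2 fold change was 0.41 (SE 0.078, edgeR adjusted p = 0.00431), or 1.33-fold.

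PMAIP1 encodes NOXA, a BH3-only protein that binds MCL1. It stood at 36.0, 35.7 and 37.6 CPM in untreated and at 42.6, 39.5 and 35.5 CPM in IR libraries. IR replicate 3 was the lowest of all 6 libraries and IR replicate 1 the highest, and the log2 fold change of 0.10 (SE 0.082, 95% confidence interval −0.08 to 0.28) did not pass the test (edgeR adjusted p = 0.375).

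BCL2L11 encodes BIM, a BH3-only protein that binds all the anti-apoptotic members and can activate BAX. It moved the other way, from 16.0, 16.3 and 19.4 CPM in untreated to 10.5, 15.2 and 10.9 CPM in IR libraries. The groups did not overlap, but IR replicate 2 came close to the untreated range. The log2 fold change was −0.51 (SE 0.147, edgeR adjusted p = 0.0257). The call was lost without untreated replicate 2 (−0.55, adjusted p = 0.0522), without untreated replicate 3 (−0.41, adjusted p = 0.0998) and without IR replicate 1 (−0.44, adjusted p = 0.0624).

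Among the anti-apoptotic genes, BCL2, first found at a lymphoma translocation, fell from 7.74, 11.1 and 7.77 CPM in untreated to 5.08, 5.17 and 5.73 CPM in IR libraries. The IR libraries lay close together, and untreated replicate 2 stood above the other untreated ones. The log2 fold change of BCL2 was −0.73 (SE 0.168, edgeR adjusted p = 0.0103), and it was −0.53 to −0.82 when single libraries were left out.

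BCL2L1 stood at 162, 149 and 139.9 CPM in untreated and at 185, 214 and 221 CPM in IR libraries. The groups did not overlap, and the log2 fold change was 0.46 (SE 0.085, 95% confidence interval 0.27 to 0.65, edgeR adjusted p = 0.00368), or 1.38-fold. MCL1, a short-lived protein that restrains BAK1 and BIM, stood at 196, 200.3 and 208 CPM in untreated and at 195, 185 and 195 CPM in IR libraries. Its IR libraries lay just below the untreated ones, and the log2 fold change of −0.07 (SE 0.061, 95% confidence interval −0.21 to 0.06) did not pass the test (edgeR adjusted p = 0.392).

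**Figure D2:**
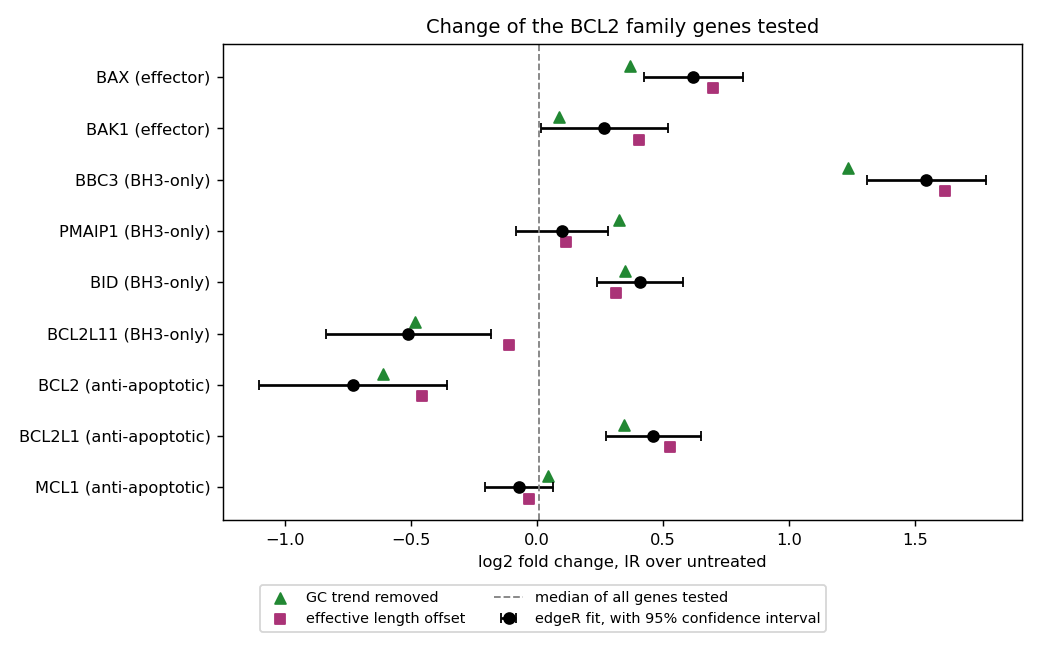
Log2 fold change (IR over untreated, horizontal axis) of the 9 tested members with 95% confidence intervals (black), after removal of each library's trend with GC content (triangles) and with an offset for effective transcript length (squares). The dashed line marks the median of all tested genes, 0.01, and BAX, BAK1, BBC3, PMAIP1, BID and BCL2L1 lie to its right under each of the 3 fits.

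Changes across all genes followed GC content. In the eighth of tested genes with the lowest GC content the median log2 fold change was −0.19, and in the eighth with the highest it was 0.34, with 45.1% of genes called higher. BAX (60.9% GC) and BBC3 (62.6% GC) belong to this highest eighth, BAK1 and BCL2L1 to the seventh, BID to the sixth, BCL2L11 to the fifth, BCL2 and MCL1 to the third and PMAIP1 (37.4% GC) to the lowest. With the GC trend of each library removed, log2 fold changes were 0.37 for BAX (edgeR adjusted p = 0.00201), 1.24 for BBC3 and 0.34 for BCL2L1, and these calls held. PMAIP1 was then called higher, at 0.33 (edgeR adjusted p = 0.00379), BAK1 was at 0.09, and MCL1 changed sign to 0.05 (adjusted p = 0.600). With an offset for effective length, 3 calls were lost, those of BID (0.31, edgeR adjusted p = 0.159), BCL2L11 (−0.11, adjusted p = 0.740) and BCL2 (−0.45, adjusted p = 0.313). BAX, BBC3 and BCL2L1 were called higher in each of the 16 alternative fits.

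**Figure D3:**
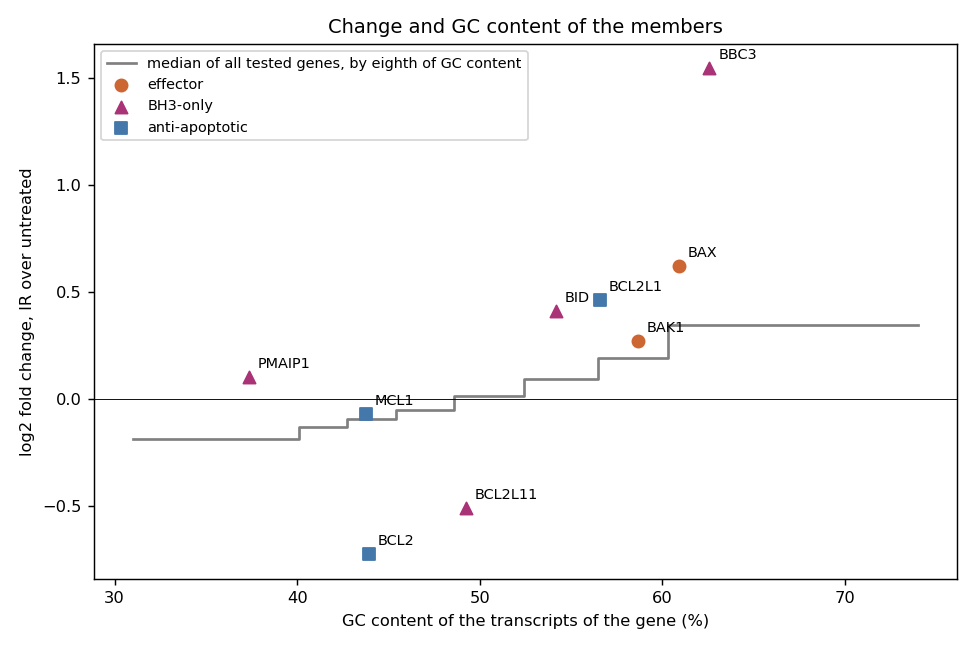
Log2 fold change (IR over untreated) of the 9 tested members against the GC content of their transcripts in percent, with the median of all tested genes in each eighth of GC content as a grey line. The line climbs from −0.19 to 0.34, and BBC3 at 1.55 and BCL2 at −0.73 lie farthest from it.

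To compare the classes, mean fitted log2 fold changes were set side by side, with no test because the members were picked by name with earlier results known. Of the 6 tested pro-apoptotic genes 3 rose, 1 fell and 2 were not called (median log2 fold change 0.34, mean 0.41), and of the 3 anti-apoptotic genes 1 rose, 1 fell and 1 was not called (median −0.07, mean −0.11). Over all tested genes, 15.5% rose and 14.5% fell. The difference of the means was 0.52, without BBC3 it was 0.29, and with the GC trend removed it was 0.39. In single libraries, the mean log2 CPM of the pro-apoptotic minus that of the anti-apoptotic genes was −1.01, −1.14 and −0.99 in untreated and −0.57, −0.51 and −0.54 in IR libraries. All IR libraries lay above all untreated ones, in values from which the GC trend was not removed. This shift arose within classes that each held genes moving in opposite directions.

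Levels of different genes were compared as TPM, the deposited abundance scaled for transcript length. In untreated libraries the order ran from BAX (218 ± 9.85 TPM, SD, n = 3) through MCL1 (71.7 ± 2.83), BCL2L1 (56.7 ± 7.23), BID (47.9 ± 7.46), PMAIP1 (39.0 ± 1.78), BAK1 (12.1 ± 1.16), BCL2L11 (7.93 ± 1.47), BBC3 (7.19 ± 0.431) and BCL2 (2.30 ± 1.04) to BIK (0.122 ± 0.153). The libraries of BCL2L1 and BID, of BID and PMAIP1 and of BCL2L11 and BBC3 overlapped, so these neighbours are not ordered. After IR, BAX (345 ± 78.4 TPM) was again first, BCL2L1 (79.4 ± 13.3) and MCL1 (68.1 ± 8.11) overlapped, and BBC3 (21.6 ± 6.58) overlapped with BAK1 (15.6 ± 5.04). BBC3 was the only member to change its place by more than 1, from the eighth to the sixth, although its libraries overlapped with those of a neighbour in both groups.

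Among the 3 anti-apoptotic genes, the MCL1 share of summed TPM was 54.9% ± 4.10 in untreated and 45.7% ± 2.41 in IR libraries (SD, n = 3), and the BCL2L1 share was 43.3% ± 4.04 and 53.2% ± 2.59. BCL2 held 1.76% ± 0.786 and 1.10% ± 0.193. Summed TPM of the 7 pro-apoptotic over that of the 3 anti-apoptotic genes was 2.46, 2.58 and 2.60 in untreated and 3.04, 3.33 and 3.41 in IR libraries. BAX made up 65.6% of the pro-apoptotic sum in untreated libraries, and 52.4% to 54.3% of BAX TPM there came from BAX-211, a transcript of 300 bases annotated for nonsense-mediated decay. With protein-coding transcripts alone, the ratio was 1.51, 1.55 and 1.43 in untreated and 1.82, 1.84 and 2.49 in IR libraries, again without overlap. In IR replicate 3, 107 of the 256 TPM of coding BAX came from BAX-208, a transcript of 383 bases with an incomplete reading frame. It had 24.4 and 33.2 TPM in IR replicates 1 and 2, and 28.2, 30.0 and 13.5 TPM in untreated libraries.

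**Figure D4:**
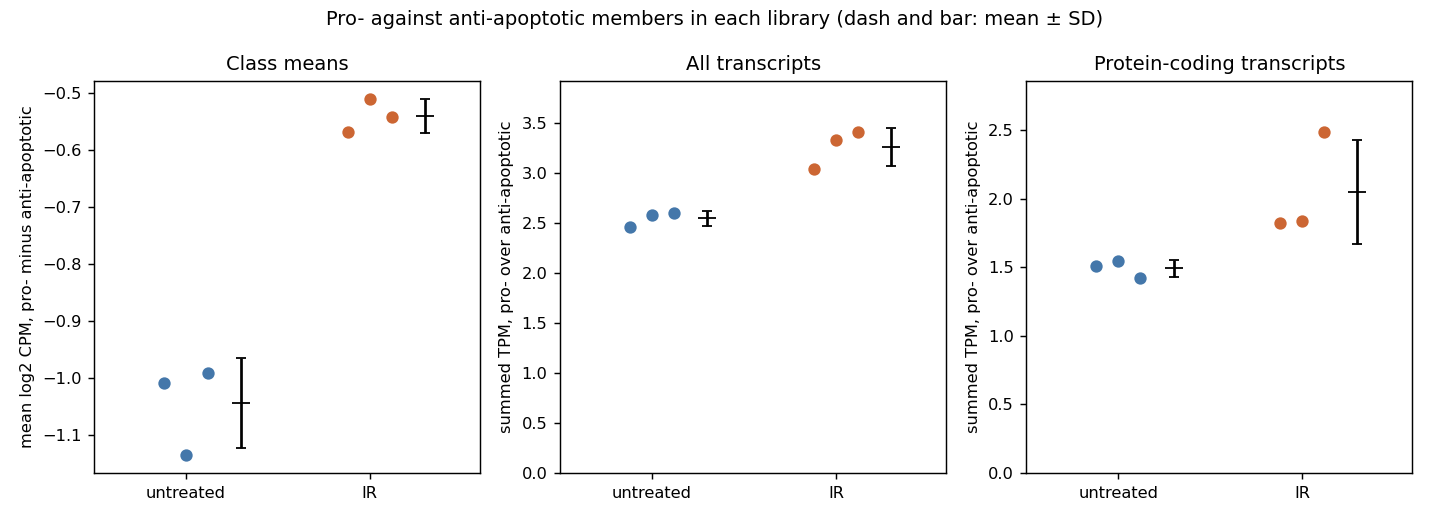
Balance of pro- and anti-apoptotic members in each library (points) with the mean and SD of each group, as the difference of mean log2 CPM (left), as the ratio of summed TPM over all transcripts (middle) and as that ratio over protein-coding transcripts (right). In each panel the 3 IR libraries lie above the 3 untreated libraries, and IR replicate 3 stands apart at 2.49 in the right panel.

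Many members make products with different functions, so transcripts were compared too. None of the 9 members with at least 2 kept transcripts was called for changed transcript usage by edgeR's diffSpliceDGE with Simes p-values (0 members at an unadjusted p under 0.05), against 2.73% of 10664 genes. By its gene-level F test 0 members were called as well, and BBC3 alone had an unadjusted p under 0.05 (adjusted p = 0.0807). The split of reads between near-identical transcripts is uncertain. For example, BCL2L1-212 was estimated at 37.9, 5.00 and 0 CPM in the 3 untreated libraries.

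The named products are described here by the number of residues their annotated reading frames encode. For BAX, the transcript of the 192-residue form (BAX alpha) had 23.0 ± 5.16 CPM in untreated and 40.5 ± 10.1 CPM in IR libraries, and that of the 218-residue form (BAX beta) 57.8 ± 8.48 and 82.7 ± 5.43 CPM. For BBC3, the transcript of 101 residues went with 5.31 ± 1.44 and 13.8 ± 2.94 CPM, that of 131 residues with 3.76 ± 0.977 and 13.6 ± 1.95 CPM, and the canonical transcript of 193 residues was estimated at 0 in all libraries but IR replicate 3, with 0.419 CPM. The transcript of 261 residues was at 0.837 ± 0.593 and 5.67 ± 2.86 CPM. Which of these BBC3 products hold a BH3 domain was not examined, so the rise of the gene is not that of 1 product. Retained-intron transcripts of BBC3 had 2.10 ± 0.396 CPM in untreated and 2.48 ± 0.352 CPM in IR libraries, while their share of BBC3 counts was 17.6% ± 4.27 and 6.95% ± 0.163. For BID, transcripts of the 195-residue form had 19.8, 14.3 and 13.1 CPM in untreated and 21.3, 15.2 and 19.6 CPM in IR libraries, which overlapped. Those of 99 residues had 12.3, 14.7 and 13.1 CPM in untreated and 16.4, 20.7 and 26.1 CPM in IR libraries, without overlap.

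BCL2L1 is known for a long anti-apoptotic product, BCL-xL with 233 residues, and a short pro-apoptotic one, BCL-xS with 170. Transcripts of the long form had 136, 133 and 129.9 CPM in untreated and 152, 192 and 208 CPM in IR libraries. Those of the short form had 24.4, 11.6 and 4.15 CPM in untreated and 24.6, 11.5 and 6.38 CPM in IR libraries. The long form thus lay higher in every IR library, whereas the ranges of the short form overlapped. The share of the short form was 8.57% ± 6.02 and 7.06% ± 5.41 (SD, n = 3).

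MCL1 counts were split between the full-length product of 350 residues (99.0 ± 5.72 CPM in untreated and 98.9 ± 12.8 CPM in IR libraries), one of 197 residues (67.4 ± 9.26 and 73.6 ± 7.73 CPM) and one of 152 residues (20.9 ± 2.85 and 8.06 ± 8.80 CPM). The short form of 271 residues known as MCL-1S stayed at or below 0.342 CPM in every library. The product of 197 residues held 33.3% ± 4.24 and 37.5% ± 2.31 of MCL1 counts. What the products of 197 and 152 residues do was not examined. The class sums above count MCL1, like BCL2L1, as anti-apoptotic whatever its product. For BCL2L11, the 198-residue form BIM-EL held 83.8% ± 6.45 and 84.5% ± 3.33 of counts. For BCL2, the 239-residue form held 70.3% ± 2.45 and 71.3% ± 2.94. NOXA was given almost entirely by the 54-residue form of PMAIP1, with 96.2% ± 2.63 and 94.5% ± 4.42.

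In the rest of the BCL2 family, 13 further genes were listed and 10 could be tested, of which 1 rose, 1 fell and 8 were not called (median log2 fold change 0.11). The shares over all tested genes were 15.5% higher and 14.5% lower. BAD, a BH3-only protein held inactive by phosphorylation, rose from 22.8 ± 1.58 to 34.7 ± 6.55 CPM (log2 fold change 0.61, edgeR adjusted p = 0.00626), but with the GC trend removed it was at 0.19 (adjusted p = 0.106). BMF, a BH3-only protein tied to the cytoskeleton, fell from 19.9 ± 1.66 to 10.97 ± 1.25 CPM (log2 fold change −0.86, edgeR adjusted p = 0.000799) and was called lower in each of the 16 alternatives. BCL2A1, BCL2L10 and BCL2L14 had too few counts to be tested.

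Outside the family, 33 genes of the same pathway were listed and 32 tested, of which 1 rose, 4 fell and 27 were not called (median log2 fold change 0.01). Calls were thus fewer than the 30.1% over all tested genes (15.5% higher, 14.5% lower). In the group that controls MCL1 turnover, FBXW7, a ubiquitin ligase subunit that marks MCL1 for degradation, rose by a log2 fold change of 0.39 (edgeR adjusted p = 0.00487), but reached −0.03 with the offset for effective length. The ubiquitin ligase HUWE1 (−0.48) and the deubiquitinase USP9X (−0.41), which act on MCL1 in opposite ways, both fell. HUWE1 lost its call with the offset for effective length (−0.17) and USP9X with the GC trend removed together with a replicate block. Downstream, the caspase gene CASP2 (−0.27) and the inhibitor of apoptosis BIRC6 (−0.66) fell, whereas APAF1 and CASP9 were not called. BIRC6 was at −0.14 with the offset for effective length and CASP2 lost its call there (−0.34, edgeR adjusted p = 0.0692) and without untreated replicate 2. Of 8 transcription factors known to act on BH3-only genes, 0 passed the quasi-likelihood test of edgeR and 0 the DESeq2 Wald test. With the GC trend removed 2 passed, which are not named here. In the main edgeR fit, 2 had an unadjusted p under 0.05, TP73 (log2 fold change −0.30) and FOXO3 (−0.17), both lower after IR.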

How the data were processed

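RNA was extracted with TRIzol from untreated U-2 OS cells and from cells 24 h after 4 Gy, and samples were grouped by the treatment in the labels. The labels name an mRNA library kit and the paper a total RNA kit. The authors used fastp for adaptors and kallisto for pseudoalignment to the transcripts of GENCODE release 37 (GRCh38). They deposited estimated counts for each transcript, without normalization. The TPM that the authors deposited divides these by effective length and by the total of the library. The deposited length and effective length served as they are. Effective length exceeded length for 24.2% to 29.1% of transcripts in a library, so the length offset may also carry a correction for sequence bias.

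Gene names and positions came from GENCODE release 44, joined on the transcript identifier. The 2460 without a match were dropped (1.54% to 1.80% of the counts in a library). Gene sums of the estimated counts were rounded, filtered by filterByExpr, scaled by TMM and tested with glmQLFit and glmQLFTest (edgeR 4.0.16, limma 3.58.1, R 4.3.3) with Benjamini–Hochberg adjustment. A standard error is the size of the log2 fold change divided by the root of its F statistic, and CPM values use TMM-scaled library sizes. Mean log2 CPM used a prior count of 2. Transcript usage was tested by diffSpliceDGE. Scripts were tested on simulated data.

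Alternatives were the filter on low counts, DESeq2 size factors, library totals without TMM, the DESeq2 Wald test (1.42.0), edgeR's likelihood ratio test, removal of the GC trend, a replicate block, an effective length offset, and leaving out each library. Replicates of a group differed by more than sampling noise, with a chi-square per gene of 3.45 to 9.15 between untreated libraries. It was 5.92 between IR replicates 1 and 2, and 29.1 and 32.2 between these and IR replicate 3. The members, lists and motifs were chosen with earlier results of these data, or the sequences, known. Named genes are all members and each called gene of the lists, and APAF1, CASP9, TP73 and FOXO3 were added after their values were seen. TWIST1, KRT19, BCL2A1, BCL2L10 and BCL2L14 are named as too low to be tested. Some listed genes are not reported here by name. The depth of IR replicate 3 gives its values the smallest counting error, but it stood farthest from the other replicates of its group. It was the highest library for 5 of the 9 tested members. The share of all tested genes that were highest in it was not counted, so the 5 cannot be read as a trait of the members. Whether its depth has a part in these high values was not tested. No other experiment of the study was used here.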

Additional observations from a re-analysis of the deposited data

How the results depend on the processing

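Over the 16 alternatives, 134 of the members' log2 fold changes kept their direction and their side of the threshold, 6 lost the call, 2 gained one and 2 changed sign. Both gains were PMAIP1 and both changes of sign were MCL1, which reached 0.046 with the GC trend removed and 0.044 with the GC trend removed and a replicate block. The difference between the mean log2 fold changes of pro- and anti-apoptotic genes, 0.52, was 0.62 with no filter on low counts (BIK then enters), 0.39 with the GC trend removed, 0.38 with the GC trend removed and a replicate block, and 0.29 without BBC3, a choice made after seeing the data. With the effective length offset, edgeR called 1712 genes (4307 without it) and 0 members lower (0 at an unadjusted p under 0.05), and the cause was not tested. Leaving out single libraries gave 2582 to 4398 called genes and 1 to 2 members called lower. The lowest count, 2582, came without untreated replicate 1, and 2601 came without untreated replicate 2. Transcript usage was called for 69 genes when each library had to hold 10 counts or more and for 454 without untreated replicate 3, against 291, and for 151 with the replicate block, and no member was called in these fits.

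The labels give both groups replicate numbers 1 to 3 with no stated shared batch. Deviations of same-numbered libraries correlated at −0.02, 0.01 and −0.05, and 1 of 6 libraries correlated best with its own number. These values, from the log2 CPM of genes, show no pairing by number, but so few libraries cannot exclude one. Transcript estimates were not compared in this way. Those of the BCL2L1 short form fell from replicate 1 to 3 in both groups (24.4, 11.6 and 4.15 CPM in untreated, 24.6, 11.5 and 6.38 CPM in IR libraries). Whether libraries shared a batch is not known. With the replicate block, 3351 genes were called, 4 members were higher and 2 lower, and the class difference was 0.51.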
